A study of Mus musculus with 2 samples.

Results

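The cells described here were 215 of 2141 kept mouse embryonic stem (ES) cells, selected on how much histone RNA they held. They were chosen by the summed share of their unique molecular identifiers (UMIs, tags that count captured RNA molecules) that fell on genes whose symbols begin with Hist1h, Hist2h, Hist3h or Hist4h. In each library a barcode was kept with at least 2000 UMIs, 0.5 to 20% mitochondrial UMIs, at least 5% UMIs from ribosomal protein genes and under 0.3% UMIs from the collagen genes Col1a1, Col1a2 and Col3a1. The highest 10% of kept cells by histone share were called histone-rich: 137 of 1362 wild-type and 78 of 779 Lin28a knockout cells. The other 1926 kept cells are called the remaining cells.

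The study profiled ES cells by the droplet method inDrop, with 1 library per genotype. The wild-type library came from an untreated, transfected wild-type clone and the Lin28a knockout library from 1 clone in which the second exon of Lin28a had been targeted with CRISPR/Cas9. Both were grown for 2 days on gelatin-coated plates with mouse embryonic fibroblast feeder cells in medium with LIF and 2 inhibitors (LIF/2i). Each genotype is therefore 1 clone and 1 library, and genotype, clone and library cannot be told apart.

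Replication-dependent histone genes encode the core histones H2A, H2B, H3 and H4, around which DNA is wrapped, and the linker histone H1. Their RNA accumulates while DNA is copied in S phase and is degraded when copying ends. Most of these RNAs end not in a poly(A) tail but in a short stem-loop bound by the protein Slbp, and the genes lie in clusters of near-identical copies, of which the largest in the mouse is on chromosome 13. ES cells spend much of their short cycle in S phase.

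The sequences that unite these genes are shown first. The stem-loop was searched in the annotated transcripts of GENCODE M21 (mouse build GRCm38, also called mm10) and is printed 5′ to 3′ in DNA letters, with the 16 bases of the loop in capitals and up to 7 bases on each side. It was found in 46 of 67 protein-coding histone genes of the rule (68.7%) and in 22 of 21834 other protein-coding genes (0.101%). The form shared by 26 genes of the H1, H2A, H2B and H3 families is shown for the H2A genes Hist1h2ad (chr13:23574895-23574910, plus strand), Hist1h2ab (chr13:23751572-23751587, plus strand) and Hist1h2ap (chr13:21833029-21833044, minus strand) and the H3 gene Hist1h3b (chr13:23752820-23752835, plus strand). The form of 7 H4 genes is shown for Hist1h4d (chr13:23581950-23581965, plus strand). The loop lies after the coding part in the 3′ untranslated region.
Hist1h2ad: aaacaaaGGCTCTTTTCAGAGCCatccact
Hist1h2ab: aaacaaaGGCTCTTTTCAGAGCCacccaca
Hist1h2ap: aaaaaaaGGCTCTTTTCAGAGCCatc
Hist1h3b: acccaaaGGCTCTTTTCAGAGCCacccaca
Hist1h4d: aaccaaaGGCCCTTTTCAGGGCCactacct
The annotated transcript of Hist1h2ap stopped 3 bases past the loop, that of Hist1h2ab 11 bases past it, and that of Hist1h2ac 2010 bases past it. The transcripts of Hist1h2af, Hist1h2ah, Hist1h2ai, Hist1h2ak and Hist1h2an are annotated without a loop, at 393 to 405 bases in all. The longest run of A in the annotated transcript had 12 bases in Hist1h2ap and Hist1h2ao and 15 in Hist1h2ac, against 2 to 8 in the other H2A genes with at least 100 UMIs in the wild-type histone-rich cells.

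The last 60 coding bases before the stop codon show how alike the H2A copies are, which limits how their UMIs can be split. Capitals mark bases that differ from Hist1h2ap (chr13:21833086-21833145, minus strand). The other stretches lie at chr13:23574801-23574860 for Hist1h2ad (plus strand), chr13:23751463-23751522 for Hist1h2ab (plus), chr13:23534241-23534300 for Hist1h2af (plus) and chr13:21786829-21786888 for Hist1h2an (minus).
Hist1h2ap: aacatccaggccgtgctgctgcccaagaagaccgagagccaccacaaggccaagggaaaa
Hist1h2ad: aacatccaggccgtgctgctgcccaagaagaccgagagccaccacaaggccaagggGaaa
Hist1h2ab: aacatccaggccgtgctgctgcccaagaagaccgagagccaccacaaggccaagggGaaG
Hist1h2af: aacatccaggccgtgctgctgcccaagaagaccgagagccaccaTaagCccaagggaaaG
Hist1h2an: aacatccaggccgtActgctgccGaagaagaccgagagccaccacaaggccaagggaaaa
Over the whole coding part of 390 bases, Hist1h2ao was identical to Hist1h2ap, and the 9 other H2A genes of that length with at least 100 UMIs differed from it at 3 to 11 bases. Of all stretches of 50 bases in the annotated transcript, 93.1% for Hist1h2ap, 67.1% for Hist1h2ad and 58.0% for Hist1h2ab also occurred in a transcript of another gene. The share was 14.1% for Hist1h2ac, whose long 3′ end is its own. Values of single H2A genes are therefore uncertain. The sum over the family avoids the split among genes, but only if no UMI was counted for several genes or dropped. The sources used here do not give the counting rule for such UMIs, so this condition was not tested.

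Promoters were read from RefSeq (GRCm38.p6), as 300 bases around each gene start, and matched for 61 of the 70 histone genes. The promoter of Hist1h2ad (RefSeq symbol H2ac7, chr13:23574131-23574430, plus strand) is printed as an example of the genes that led the histone-rich cells, with capitals for the CCAAT box (CCAAT) and the TATA box (TATAAA), each searched on both strands.
Hist1h2ad promoter: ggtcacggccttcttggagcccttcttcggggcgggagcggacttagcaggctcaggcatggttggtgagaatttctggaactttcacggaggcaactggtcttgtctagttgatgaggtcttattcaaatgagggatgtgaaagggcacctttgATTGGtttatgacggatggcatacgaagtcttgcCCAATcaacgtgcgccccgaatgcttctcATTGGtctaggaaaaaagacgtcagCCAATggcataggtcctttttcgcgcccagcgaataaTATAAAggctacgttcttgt
A CCAAT box was present in all 17 H2A promoters, all 17 H2B, all 10 H3 and all 6 H1 promoters, in 3 of 12 H4 promoters and in 37.4% of 32851 promoters overall. The TATA box was present in 11 of 17 H2A promoters and 13.6% of all promoters. The octamer ATTTGCAT, searched on both strands, was present in 7 of 17 H2A and 7 of 17 H2B promoters, in none of the H1, H3 and H4 promoters and in 1.74% of all promoters. Of the H2A promoters, 9 overlap an H2B promoter, as divergent gene pairs, so these counts are not independent. A match of letters is a description and not a measured binding site.

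The deposited tables held 4329 wild-type barcodes with 12079546 UMIs and 6060 knockout barcodes with 10027710 UMIs. The median depth of kept cells was 6333 UMIs (wild-type) and 8067 UMIs (knockout). Lin28a, which encodes an RNA-binding protein, was at 119.7 UMIs per 1000000 UMIs (counts per 1000000, written CPM) in kept wild-type cells and 42.4 in kept knockout cells, a ratio of 0.354 (0.310 to 0.404). In the histone-rich cells its level was 95.3 CPM (79 UMIs) and 34.2 CPM (22 UMIs), a ratio of 0.360 (0.213 to 0.583). inDrop tags the 3′ end of an RNA, outside the targeted exon, so this value is not a check of the knockout. Every interval given here is an exact 95% interval that covers counting error only and not differences between cells or between cultures. With 1 library a genotype no test between genotypes was possible, and since the cells were ranked on their own histone UMIs, the ratio of histone-rich to remaining cells is a description for every gene.

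The histone share was continuous across kept cells. The lowest histone-rich cell had 1.85% histone UMIs in the wild-type library and 2.32% in the knockout library, and the highest remaining cell had 1.84% and 2.31%. A further 110 wild-type and 60 knockout cells lay within 20% below the limit. The median share was 2.16% in wild-type histone-rich cells against 0.550% in the remaining cells, and 2.96% against 0.613% in the knockout library. The highest cell reached 5.94% and 5.82%. No histone UMI was counted in 92 wild-type and 38 knockout cells, all of them among the remaining cells. The plot of histone shares shows a long right tail with no gap at the limit, so the histone-rich cells are the upper end of a range and not a separate group.

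**Figure D1:**
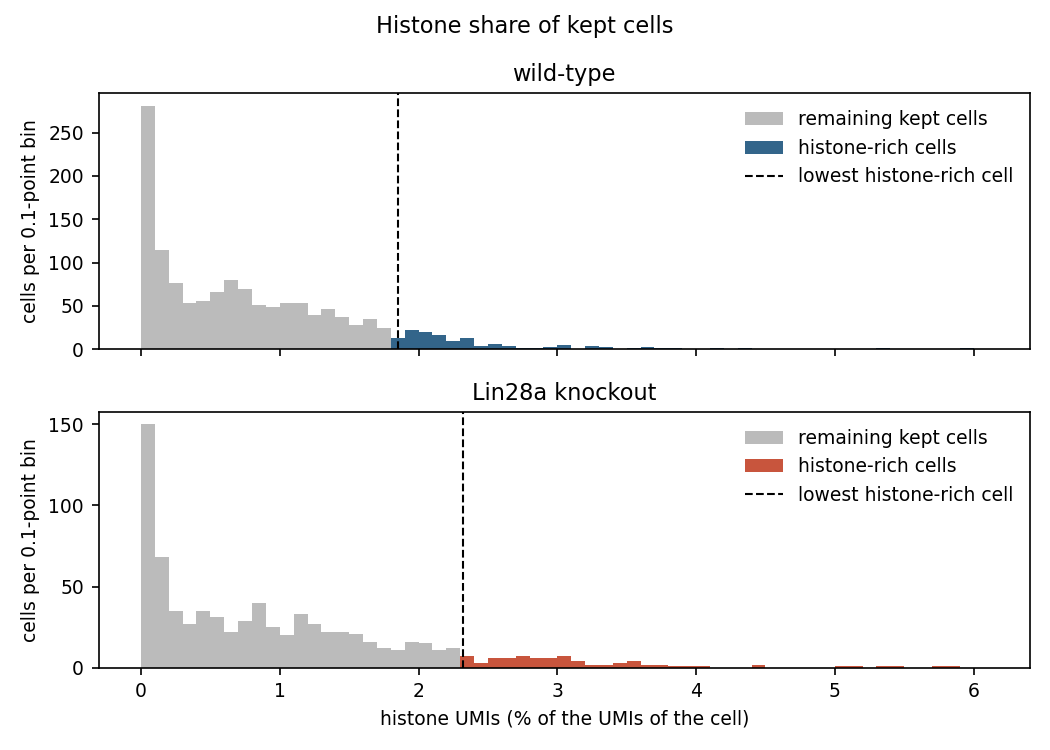
Kept cells by the percentage of their UMIs that fell on histone genes, in bins of 0.1 percentage points, for the wild-type library (upper) and the Lin28a knockout library (lower). Coloured bars are the 137 and 78 histone-rich cells, grey bars the remaining cells, and the dashed line the lowest histone-rich cell (1.85% and 2.32%), with cells on both sides of it.

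Depth did not separate the cells by much. Histone-rich cells had a median of 6104 UMIs against 6383 in the remaining wild-type cells, and 7702 against 8092 in the knockout library. Above 10000 UMIs only 3 of 133 wild-type cells were histone-rich (2.26%, 0.468 to 6.45%), against 99 of 869 cells (11.4%) from 5000 to 10000 UMIs, while the knockout library had 27 of 267 cells (10.1%) above 10000. Ranked at a common depth of 2000 UMIs drawn from every cell, the highest 10% again included 115 of 137 (wild-type) and 69 of 78 (knockout). Scrublet called 4 of 137 and 1 of 78 histone-rich cells doublets, against 15 of 1225 and 9 of 701 remaining cells. The part of depth and of doublets in the results was not tested beyond these values and the alternatives with thinned ranking, deeper cells or doublets left out.

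The label of these cells names the H3 genes Hist1h3i, Hist1h3a and Hist1h3b, but the histone RNA counted in them came almost wholly from H2A genes. H2A genes held 19272 of 19930 histone UMIs (96.7%) in wild-type histone-rich cells and 20103 of 20291 (99.1%) in knockout histone-rich cells. Summed H2A was at 23236.5 CPM (22909.5 to 23566.9) against 5754.8 CPM in the remaining wild-type cells, and at 31290.5 CPM (30859.4 to 31726.1) against 7084.8 CPM in the knockout library. Genes of the Hist1 cluster on chromosome 13 gave 99.8% of the histone UMIs in both libraries, and those of Hist2 on chromosome 3 gave 34 and 22 UMIs. The remaining cells were also mostly H2A by this measure, at 93.6% and 97.6% of their histone UMIs, so the dominance of H2A was not particular to the chosen cells. Since the rule summed all families, these shares describe the choice. They are shares of counted UMIs, and whether a UMI was counted for several H2A copies was not tested. Most replication-dependent histone RNAs lack a poly(A) tail, and how fully each family was captured was not measured.

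The 3 H3 genes of the label had few counted UMIs. Hist1h3i was at 49.4 CPM (35.5 to 67.1, 41 UMIs) in wild-type histone-rich cells against 23.6 CPM in the remaining cells, and at 14.0 CPM (6.41 to 26.6, 9 UMIs) against 6.48 CPM in the knockout library. Hist1h3b was at 59.1 CPM (49 UMIs) against 26.5 CPM, and at 15.6 CPM (10 UMIs) against 8.10 CPM. Hist1h3a was at 28.9 CPM (24 UMIs) against 14.8 CPM, and at 9.34 CPM (6 UMIs) against 5.67 CPM. All 3 were higher in the histone-rich cells, but in the knockout library the interval of each ratio included 1.

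Hist1h2ap led the histone-rich cells of both genotypes by UMIs, with 3772 (wild-type) and 3646 (knockout). Its level was 4547.9 CPM against 1223.9 CPM in the remaining wild-type cells, a ratio of 3.72 (3.58 to 3.86). Among knockout cells it was 5675.03 CPM against 1425.3 CPM, a ratio of 3.98 (3.83 to 4.14). Hist1h2ad followed with 4045.2 against 1035.1 CPM (3.91-fold) and 5587.9 against 1359.5 CPM (4.11-fold). Hist1h2ab was at 3320.5 against 816.5 CPM (4.07-fold) and at 4160.6 against 977.7 CPM (4.26-fold). The same H2A genes led in both genotypes, as the plot of histone genes shows.

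**Figure D2:**
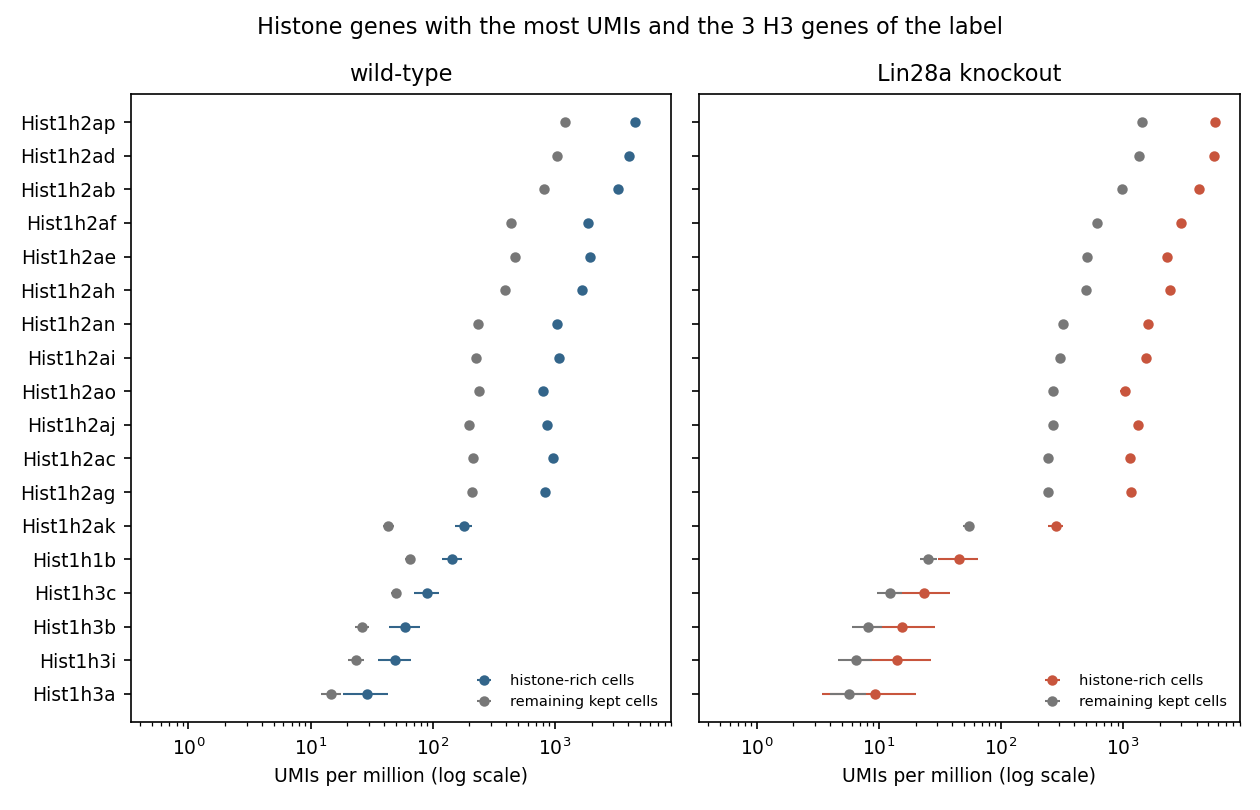
Level in CPM on a log scale for the 15 histone genes with the most UMIs and the 3 H3 genes of the label, in histone-rich cells (coloured) and remaining cells (grey) of each library. Points are pooled levels and bars exact 95% counting intervals; for every gene drawn the coloured point lies above the grey one in both libraries.

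The other H2A genes with many UMIs were alike in their ratios. Hist1h2af was 4.30-fold and 4.84-fold higher in histone-rich cells, Hist1h2ae 4.16-fold and 4.60-fold, and Hist1h2ah 4.29-fold and 4.88-fold, each first in wild-type and then in knockout cells. Hist1h2an (4.41 and 5.01), Hist1h2ai (4.81 and 5.11), Hist1h2ag (4.0 and 4.87) and Hist1h2ak (4.14 and 5.16) lay in the same range. Hist1h2ao was lowest of the H2A genes with at least 100 UMIs, at 3.37 and 3.89. Hist1h2aj, annotated as an unprocessed pseudogene, was 4.35-fold and 4.98-fold higher. Hist1h2ac, of which no UMI was ambiguous and whose transcript is mostly its own, was at 964.6 CPM against 215.2 CPM (4.48, 4.12 to 4.87) and at 1131.6 CPM against 242.03 CPM (4.68, 4.27 to 5.11). Of the H2A genes examined this one shares least sequence with others, and its ratio lay within their range.

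The mix of H2A genes, as their UMIs were assigned, was alike from cell to cell. Every wild-type histone-rich cell had UMIs of at least 10, and every knockout histone-rich cell of at least 11, of the 13 leading H2A genes, with a median of 13 in both. Hist1h2ap took a median of 19.2% of a wild-type cell's H2A UMIs (16.1 to 25.1% between the 10th and 90th percentile) and 18.2% in knockout cells (15.5 to 22.2%). Hist1h2ad took 17.4% and 17.7%, and Hist1h2ab 14.3% and 13.7%. A cell's leading H2A gene took at most 30.2% and 31.3% of its assigned H2A UMIs. How the near-identical copies share UMIs was set by the counting, so these shares do not show which copies were transcribed. Each cell held 43 to 322 histone UMIs (wild-type) or 54 to 621 (knockout).

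Outside the rule, Gm11336, an unprocessed pseudogene annotated in the same cluster (chr13:23746166-23746499), had the largest ratio of the 2528 genes compared, those counted at 500 UMIs or more per library. It was at 1252.7 CPM against 309.6 CPM (4.05, 3.76 to 4.35) and at 1435.1 CPM against 326.9 CPM (4.39, 4.06 to 4.75). All 12 protein-coding H2A genes with at least 100 UMIs shared stretches of 50 bases with it, so its UMIs may include H2A reads. Their part in its UMIs was not measured. Of the histone genes themselves, all 24 wild-type and all 14 knockout ones that reached 100 UMIs in kept cells were higher in the histone-rich cells. Their median ratios were 3.54 and 4.76. These medians cover different genes and are not comparable. The wild-type set held H1 and H3 genes with lower ratios, while Hist1h1b was the only gene outside H2A to reach 100 UMIs in knockout cells. Since the rule ranked cells on the summed share, which is nearly all H2A, the higher level of H2A genes follows from the choice. H1 and H3 genes were also part of the sum, so their ratios here are a description as well. Ambiguous UMIs, which the tables list apart, were 1.92% and 1.71% of the histone UMIs.

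Ranking cells on the same UMIs that are then compared raises the ratio, so it was also read from UMIs that the ranking did not use. When the UMIs of each cell were split at random, cells ranked on 1 part and levels read in the other, the histone ratio was 3.79 (3.70 to 3.88) in wild-type and 4.19 (4.09 to 4.29) in knockout cells, against 3.91 and 4.35 from all UMIs. When cells were ranked on the other families alone, H2A was still 1.83-fold (1.79 to 1.87) and 1.87-fold (1.83 to 1.91) higher in the highest 10%. H3 ranked on the other families was at 321.1 CPM (267 UMIs) against 171.9 CPM, 1.87-fold (1.63 to 2.13), in wild-type and at 112.7 CPM (73 UMIs) against 56.4 CPM, 2.00-fold (1.53 to 2.58), in knockout cells. H1 was 1.72-fold (1.49 to 1.97) and 1.45-fold (1.08 to 1.91) higher, and H4 1.87-fold (1.32 to 2.58) and 1.39-fold (0.825 to 2.23). H2B, with 28 and 30 UMIs, had ratios of 1.01 (0.658 to 1.49) and 1.46 (0.958 to 2.15). High histone counts of different families thus occurred in the same cells for H1, H2A and H3 in both libraries. The difference was not detectable at this depth for H2B in either library and for H4 in knockout cells.

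In the histone-rich cells as chosen, linker histone H1 was at 337.6 CPM against 164.3 CPM (2.05-fold) in the wild-type and 93.4 CPM against 62.4 CPM (1.5-fold) in the knockout library. Hist1h1b, the H1 gene with the most UMIs, was at 144.7 against 64.6 CPM (2.24, 1.82 to 2.73) and 45.1 against 25.4 CPM (1.77, 1.15 to 2.65). H3 was 2.04-fold and 2.15-fold higher, led by Hist1h3c at 89.2 against 50.1 CPM (1.78, 1.37 to 2.28) and 23.3 against 12.3 CPM (1.90, 1.01 to 3.33). H4 was 2.50-fold (1.83 to 3.37, 56 UMIs) and 1.39-fold (0.825 to 2.23, 20 UMIs) higher. H2B had 35 and 31 UMIs and ratios of 1.29 (0.879 to 1.84) and 1.53 (1.01 to 2.24). The median histone-rich cell held only 3 wild-type or 1 knockout UMIs from all families but H2A, and 17 and 25 cells held none.

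The level of each family along the range is given as a description. Over 10 bins of equal cell number by histone share, H2A went from 42.2 CPM in the lowest bin to 15404.1 in the ninth and 23277.6 in the highest bin of the wild-type library. H1 in the same library was 11.2 CPM in the lowest, 204.1 in the fifth, 301.4 in the seventh and 335.3 in the highest bin, and H3 was 7.45, 213.1, 215.4 and 348.7 CPM. The bins follow the histone share itself, which is nearly all H2A, so both the order of H2A and its steeper course are fixed by the ranking, and no difference between families is read from them.

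Beyond histones, genes of G2 and mitosis, the phases that follow DNA replication, were lower in the histone-rich cells. The list of 48 such genes summed to 5199.03 CPM against 6984.8 CPM in the remaining wild-type cells, a ratio of 0.744 (0.721 to 0.768). In knockout cells it summed to 4569.9 CPM against 6331.2 CPM, a ratio of 0.722 (0.695 to 0.749). Of the 31 members compared, 28 wild-type and 30 knockout ratios were below 1, with medians of 0.726 and 0.729, against medians of 1.01 and 0.986 over all 2528 genes. Past the fold of 1.5 were 8 and 11 of the 31, all lower, where 2.02% (wild-type) and 5.78% (knockout) of all genes tested were called lower. None was called higher, against 0.277% of all genes in each library.

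Ube2c, the ubiquitin-conjugating enzyme of the anaphase-promoting complex, was at 217.03 CPM against 425.6 CPM (0.510, 0.437 to 0.592) in wild-type and 244.4 CPM against 528.1 CPM (0.463, 0.392 to 0.543) in knockout cells. Cenpf, a kinetochore protein, was at 104.9 against 209.4 CPM (0.501) and 71.6 against 135.8 CPM (0.527). Ect2, which directs the cleavage furrow in cytokinesis, was at 76.0 against 137.8 CPM (0.551) and 52.9 against 99.1 CPM (0.534). Arl6ip1, a protein of the endoplasmic reticulum that the list holds for its mitotic RNA peak, was at 260.4 against 551.1 CPM (0.473) and 224.1 against 464.5 CPM (0.483). All 4 were about as low in both libraries.

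Other mitotic genes followed. The kinase gene Plk1 had ratios of 0.63 and 0.60, the checkpoint genes Bub3 0.61 and 0.58 and Mad2l1 0.69 and 0.59, and the condensin gene Smc4 0.68 and 0.54. Ccnb1, the mitotic cyclin, had 0.78 and 0.73, and the proliferation marker Mki67 was at 123.0 against 175.7 CPM (0.70, 0.57 to 0.86) and 70.04 against 94.1 CPM (0.74, 0.54 to 1.01). Not every member was low. Tubb4b, the tubulin gene with the most UMIs in the list, had ratios of 1.04 (0.93 to 1.16) and 1.0 (0.89 to 1.11), and Dlgap5, a spindle protein, 1.13 and 0.92, both with intervals that included 1.

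The mitotic level was low in single cells too. None of the 137 wild-type histone-rich cells (0 to 2.66%) and 1 of the 78 knockout cells (1.28%, 0.0325 to 6.94%) lay above the 90th percentile of the remaining cells' G2 and mitosis share, and 13 (9.49%) and 8 (10.3%) lay above their median. The median share was 0.522% in histone-rich against 0.656% in remaining wild-type cells, and the 90th percentiles were 0.650% and 0.977%. In the knockout library the medians were 0.466% and 0.587% and the 90th percentiles 0.584% and 0.917%. Within the histone-rich cells, the 68 wild-type cells with more histone RNA had 5176.2 CPM of the list and the 69 with less had 5221.3, with overlapping intervals. The 39 upper and 39 lower knockout cells had 4440.4 (4210.7 to 4679.4) and 4694.4 (4462.6 to 4934.96).

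The lower level was not limited to the chosen cells. The list was also lower in the higher bins of histone share among the remaining cells, though not in strict order at either end of the range. Relative to all kept cells of the library, the G2 and mitosis list was at 1.2, 1.31 and 1.25 in the 3 lowest bins of the wild-type library and at 0.83, 0.73 and 0.76 in the 3 highest. In the knockout library it was at 1.23, 1.27 and 1.27 and at 0.81, 0.79 and 0.74. The remaining cells thus varied along this range, and those with little histone RNA had more mitotic RNA than those with more.

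**Figure D3:**
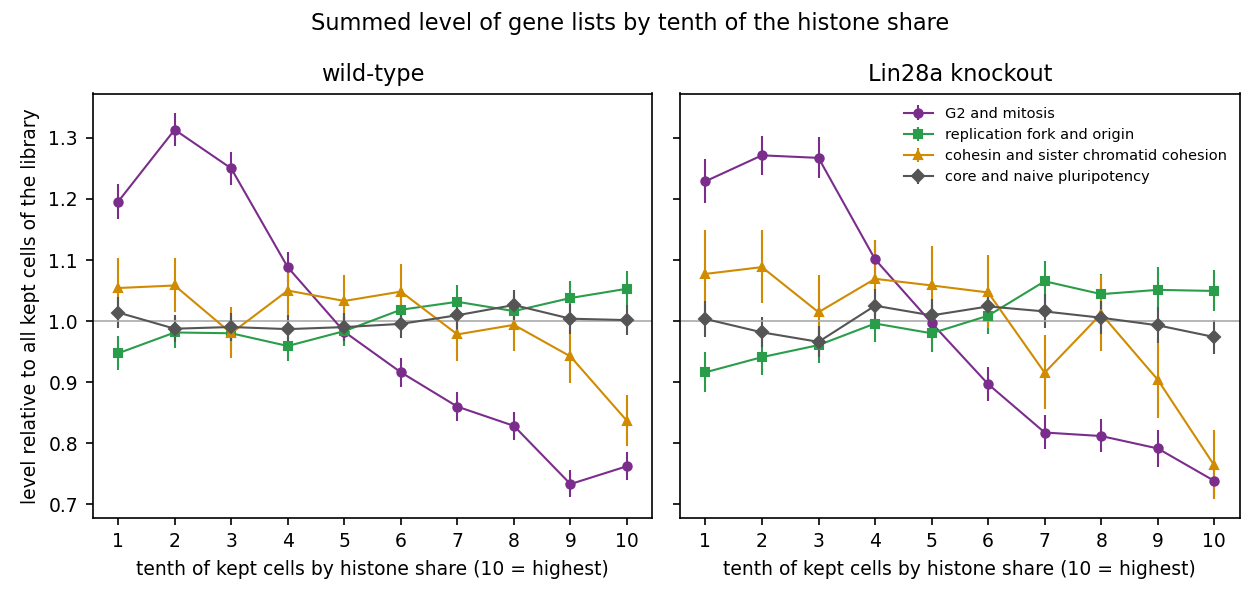
Summed level of 4 gene lists (G2 and mitosis, replication fork and origin, cohesin, pluripotency) relative to all kept cells of the library (y axis; grey line, 1) in 10 bins of kept cells ordered by histone share (x axis; bin 10 is highest), with exact 95% counting intervals. The G2 and mitosis list is at 1.31 and 1.27 in the second bin and at 0.762 and 0.738 in the highest, while the pluripotency list stays near 1.

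Genes of the replication fork and of replication origins, which act in S phase, were at most slightly higher. The list of 50 (49 found) summed to 6449.4 CPM against 6085.5 CPM in wild-type cells, a ratio of 1.06 (1.03 to 1.09), and to 5843.1 CPM against 5540.4 CPM in knockout cells, a ratio of 1.05 (1.02 to 1.09). Of the 25 members compared, 19 wild-type and 13 knockout ratios were above 1, with medians of 1.07 and 1.02. Past 1.5-fold higher were 0 of the 25 in the wild-type and 1 of the 25 in the knockout library, where 0.277% of all genes compared were called higher in each. The 1 was Mcm10, named after its value was seen (1.52; 1.08 in wild-type). The list was above the median of the remaining cells in 91 of 137 (66.4%) and 50 of 78 (64.1%) histone-rich cells. Relative to all kept cells, the lowest and highest bins were at 0.947 and 1.05 (wild-type) and at 0.916 and 1.05 (knockout). Among the knockout histone-rich cells, the upper 39 were at 6130.2 CPM (5859.7 to 6409.9) and the lower 39 at 5567.3 CPM (5314.7 to 5828.8), while the wild-type values, 6396.4 and 6501.1 CPM, had overlapping intervals.

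Lig1, the ligase that joins newly copied DNA, had ratios of 1.23 and 1.40. Mcm7, a subunit of the replicative helicase, had the largest smaller ratio of both libraries in the list, at 324.3 against 251.4 CPM (1.29, 1.13 to 1.47) and 309.7 against 233.8 CPM (1.33, 1.14 to 1.54). Mcm2 of the same complex was at 373.8 against 335.5 CPM (1.11, 0.99 to 1.25) and 442.05 against 435.3 CPM (1.02, 0.90 to 1.15). Pcna, the sliding clamp, was at 667.96 against 646.4 CPM (1.03, 0.95 to 1.13) in the wild-type and at 368.9 against 444.7 CPM (0.83, 0.72 to 0.95) in the knockout library. Orc1, the origin subunit made before S phase, was lower at 0.74 (0.55 to 0.97) and 0.74 (0.51 to 1.04). Top2a, which untangles DNA and peaks toward mitosis, was at 457.0 against 598.2 CPM (0.76, 0.69 to 0.85) and 367.3 against 495.1 CPM (0.74, 0.65 to 0.85). These 2 were the lowest members of the list in both libraries together.

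Genes that supply nucleotides summed to ratios of 1.07 (1.03 to 1.11) and 1.06 (1.01 to 1.11), with 12 and 9 of 15 members above 1. Dctpp1, which clears faulty deoxynucleotides, was at 270.1 against 219.3 CPM (1.23, 1.07 to 1.42) and 320.6 against 245.8 CPM (1.30, 1.12 to 1.51). Dut, which removes dUTP, was at 323.1 against 294.3 CPM (1.10, 0.96 to 1.25) and 306.6 against 201.2 CPM (1.52, 1.30 to 1.77), past the fold of 1.5 only in the knockout library, a difference that was not tested. Nme1 had ratios of 1.13 and 1.11. Paics, a purine synthesis enzyme, was lower, at 0.86 (0.78 to 0.95) and 0.81 (0.71 to 0.93).

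The G1/S cyclins and E2F genes as a list had ratios of 1.0 (0.958 to 1.05) and 0.961 (0.911 to 1.01), but its cyclins differed. Ccne1, which drives entry into S phase, was at 206.2 against 162.2 CPM (1.27, 1.08 to 1.49) and 203.9 against 147.7 CPM (1.38, 1.14 to 1.66). Ccnd1, a cyclin of G1, was at 130.2 against 191.9 CPM (0.68, 0.55 to 0.82) and 94.9 against 139.6 CPM (0.68, 0.52 to 0.88). Ccnd3 had ratios of 1.16 and 1.01, Cdk4 1.06 and 1.03, and the inhibitor gene Cdkn1a 1.04 and 0.88. None of the 10 members with at least 500 UMIs passed 1.5-fold.

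Cohesin genes, which hold sister chromatids together, were lower, at 0.823 (0.780 to 0.867) and 0.746 (0.691 to 0.804), with 8 and 9 of 9 members below 1. Past 1.5-fold lower were 0 of the 9 in the wild-type and 4 of the 9 in the knockout library. Over all genes compared, 2.02% and 5.78% were called lower. Rad21 was at 314.7 against 408.5 CPM (0.77) and 160.3 against 280.9 CPM (0.57), Smc3 had ratios of 0.83 and 0.82 and Smc1a 0.80 and 0.76. Esco2, which acetylates cohesin in S phase, was lowest at 0.69 (0.54 to 0.88) and 0.53 (0.37 to 0.75), and Mau2, a loader of cohesin, was at 1.23 and 0.92 with intervals that included 1. In the bins of histone share, cohesin was at 0.942 to 1.06 of the level of all kept cells in the 9 lower bins and at 0.837 in the highest bin of the wild-type library, and at 0.904 to 1.09 and 0.764 in the knockout library. The cohesin list was thus lowest in the highest bin, with no steady fall over the lower bins. The G2 and mitosis list, by contrast, was already well below 1 in the bins next to the highest. The replication checkpoint list was at 0.961 (0.907 to 1.02) and 0.927 (0.866 to 0.992). In it, H2afx had ratios of 1.17 and 0.92, Rad54l 1.21 and 1.19, Topbp1 0.79 and 0.91 and Brca2 0.63 (0.47 to 0.84) and 0.81 (0.59 to 1.10).

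The genes that process histone RNA were not higher in the histone-rich cells. Their list of 19 (17 found) had ratios of 0.923 (0.862 to 0.988) and 0.939 (0.863 to 1.02). Slbp, the stem-loop binding protein, was at 201.4 against 198.5 CPM (1.01, 0.86 to 1.19) in the wild-type and 141.6 against 163.3 CPM (0.87, 0.69 to 1.08) in the knockout library. Srrt had ratios of 0.81 and 1.06, Mif4gd 0.84 and 0.93 and Ncbp1 1.06 and 0.97.

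Histone chaperones, which carry histones to DNA, were lower at 0.915 (0.899 to 0.931) and 0.868 (0.849 to 0.887). The sum rested on abundant genes of many roles: Ptma with 5374 and 3383 UMIs (0.97 and 0.86), Npm1 (0.83 and 0.79) and Set (0.87 and 0.84). Atrx, a chromatin remodeller that places H3.3, was lowest at 253.2 against 392.1 CPM (0.65, 0.56 to 0.74) and 110.5 against 162.8 CPM (0.68, 0.53 to 0.86). Nap1l4 was at 1.06 and 1.35, and Nasp, a carrier of H3 and H4, at 1.11 and 1.14. Replication-independent histone variants as a list did not follow the replication-dependent genes, at 1.01 (0.979 to 1.05) and 0.897 (0.861 to 0.935). H2afz, with the most UMIs, had ratios of 1.12 (1.05 to 1.18) and 0.97 (0.90 to 1.05). H3f3a had 0.93 and 0.85, H3f3b 0.98 and 0.91 and H2afj 1.10 and 1.2. H2afy (macroH2A) had 0.95 and 0.71, and the centromeric Cenpa 0.79 and 0.76.

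Across all 2528 genes compared, none of them in the rule, 7 wild-type and 7 knockout genes were at least 1.5-fold higher in the histone-rich cells (0.277% each), and 51 (2.02%) and 146 (5.78%) at least 1.5-fold lower. In both libraries at once, 1 gene was higher (0.0396%, the pseudogene Gm11336) and 30 were lower (1.19%). The middle 90% of ratios ran from 0.725 to 1.25 (wild-type) and from 0.652 to 1.27 (knockout). The 78 knockout cells held fewer UMIs than the 137 wild-type cells, 642463 against 829386 in all. The part of this in the counts of genes was not tested.

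**Figure D4:**
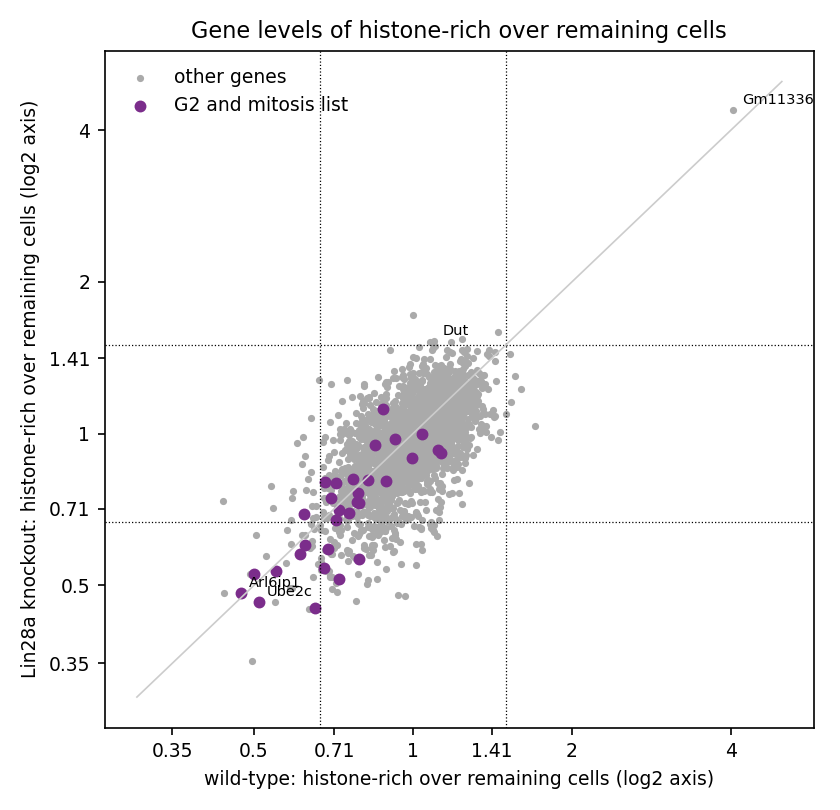
Ratio of histone-rich to remaining cells for 2528 genes outside the rule in the wild-type (x axis) and knockout (y axis) library, both on log2 axes. Purple points are the 31 genes of the G2 and mitosis list, dotted lines mark 1.5-fold in either direction, and Gm11336 is alone at the upper right.

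The 10 genes lowest in both libraries were Trim59, Arl6ip1, Gm26870, Ube2c, Ptgfrn, Cenpf, Gm48415, Ect2, Gm10184 and Cited2. Of these, 4 are in the G2 and mitosis list (Arl6ip1, Ube2c, Cenpf and Ect2). Trim59 was at 44.6 against 101.6 CPM (0.44, 0.31 to 0.61) and 37.4 against 77.4 CPM (0.48, 0.31 to 0.73). The long non-coding RNA Gm26870 was at 348.5 against 704.6 CPM (0.49, 0.44 to 0.56) and 82.5 against 232.96 CPM (0.35, 0.26 to 0.47). Ptgfrn had ratios of 0.49 and 0.53, the processed pseudogene Gm48415 0.55 and 0.46, Gm10184 0.53 and 0.57 and the transcriptional co-regulator gene Cited2 0.57 and 0.55.

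After Gm11336, the 9 genes highest in both libraries had ratios of 1.32 to 1.59. They included the processed pseudogenes Gm48909 (1.45 and 1.59), Gm15310 (1.53 and 1.44) and Gm6798 (1.32 and 1.34), whose UMIs may belong to their parent genes. The protein-coding ones were the mitochondrial ribosomal gene Mrpl30 (1.43 and 1.45), the elongation factor gene Tufm (1.38 and 1.44), Ndufa7 of respiratory complex I (1.32 and 1.46), Ufc1 (1.39 and 1.47), Psme2 (1.43 and 1.39) and Pigp (1.39 and 1.42). Gm15310 is annotated within Pigp on the same strand, so their UMIs may not be separate. None of these 9 is in the replication or nucleotide lists.

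Nuclear-retained RNA was lower in the histone-rich cells, at 0.850 (0.836 to 0.865) and 0.905 (0.884 to 0.926). Malat1 was at 2559.7 against 4345.8 CPM (0.59, 0.56 to 0.62) and 891.9 against 1810.03 CPM (0.49, 0.45 to 0.54), and Meg3 had ratios of 0.76 in both. Gm42418, which overlaps ribosomal RNA sequence and held most UMIs of the list, had 0.94 and 1.0. RNA composition differed in other ways. The median share of ribosomal protein genes was 9.38% against 8.59% and 10.5% against 9.39%, and the median mitochondrial share 1.19% against 1.51% and 1.36% against 1.98%. Summed over cells, ribosomal protein genes had ratios of 1.10 in both libraries and mitochondrial genes 0.802 (0.787 to 0.818) and 0.729 (0.714 to 0.744). With ribosomal protein and mitochondrial genes left out of the total, the G2 and mitosis ratio was 0.749 and 0.725. The part of these shifts in the level of other lists was not tested.

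Pluripotency genes as a list were at a like level in histone-rich and remaining cells. The list of 27 had ratios of 1.0 (0.977 to 1.03) and 0.973 (0.945 to 1.0). All 9 ES cell markers checked had UMIs in the histone-rich cells, with a summed level of 4795.1 CPM in wild-type and 4794.05 CPM in knockout cells. Pou5f1 was at 917.5 against 821.02 CPM (1.12, 1.04 to 1.2) and 1078.7 against 1041.8 CPM (1.04, 0.96 to 1.12), and Dppa5a had ratios of 1.23 and 1.15. Nanog was lower, at 232.7 against 315.7 CPM (0.74, 0.63 to 0.85) and 233.5 against 330.8 CPM (0.71, 0.59 to 0.83); it belongs to the markers and is named after its value was seen. Sox2, also 1 of the markers, was at 0.77 (0.62 to 0.93) and 0.78 (0.56 to 1.05). Zfp42 had ratios of 0.87 and 0.77, Sall4 0.68 in both, and Nr0b1 0.54 (0.37 to 0.78) and 0.71 (0.50 to 0.99). The like level of the list sum thus does not hold for each member.

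Markers of other cells were read as well. The rule for kept cells had already used Col1a1, Col1a2 and Col3a1, so their low level is set by it. Of 10 fibroblast markers, which would mark feeder cells, Col3a1, Col6a1, Lum, Dcn and Postn had no UMI in the histone-rich cells of either library. The remaining cells, with far more UMIs in all, held only 2 to 9 UMIs of each, or 21 for knockout Col6a1, so these counts of 0 say little. Col1a1 (0.73 and 1.28), Col1a2 (1.31 and 0.37), Col5a1 (1.86 and 1.42) and Thy1 (0.84 and 1.67) had few UMIs and intervals that included 1. The summed level of the 10 was 405.1 against 449.6 CPM and 334.7 against 448.6 CPM, mostly Fn1 (314 and 189 UMIs). None of 6 markers of the 2-cell-like state (Zscan4c, Zscan4d, Zscan4f, Zfp352, Tcstv1 and Tcstv3) had a UMI in histone-rich cells, against 5 and 5 UMIs in the remaining cells. The remaining cells held 8337216 and 6172811 UMIs in all, against 829386 and 642463 in the histone-rich cells, so these counts show no difference. A count of 0 allows up to 3 UMIs as a one-sided 95% limit, and the exact 95% intervals used elsewhere reached 4.45 CPM (wild-type) and 5.74 CPM (knockout) for these 6 markers. Endoderm markers had 9 and 6 UMIs and markers of primed cells 25 and 20.

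None of the other lists summed to 1.5-fold in either direction, except for the 2-cell-like list with its few UMIs. Host genes of small nucleolar RNAs had ratios of 1.08 (1.02 to 1.13) and 1.12 (1.06 to 1.18), among them Rpl13a at 1.22 and 1.26. Nucleolar and ribosome assembly genes summed to 0.916 (0.897 to 0.935) and 0.940 (0.915 to 0.965), with Npm1 (0.83 and 0.79) and Ncl (0.89 and 0.92) the members with most UMIs, although 14 and 17 of 29 members were above 1. Glycolysis was at 1.08 (1.05 to 1.10) and 1.02 (0.999 to 1.05), with Gapdh at 1.08 and 1.04. The p53 targets were at 1.03 and 0.961, the Atf4 stress response at 0.965 and 1.05, and immediate early genes at 0.909 (0.850 to 0.971) and 0.872 (0.808 to 0.939). Primed epiblast genes were at 0.826 and 0.836, primitive endoderm genes at 0.975 and 0.888 and feeder fibroblast genes at 0.947 and 0.797. The 2-cell-like list of 29 (28 found) had 2 and 1 UMIs in the histone-rich cells and 34 and 30 in the remaining cells. Its ratios of 0.591 (0.0688 to 2.31) and 0.320 (0.00785 to 1.93) had intervals that included 1.

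Between the libraries, the histone families differed in direction within the histone-rich cells. H2A was higher in the knockout cells, at 31290.5 against 23236.5 CPM, a ratio of 1.35 (1.32 to 1.37). H1 was lower, at 93.4 CPM (60 UMIs) against 337.6 CPM (280 UMIs), a ratio of 0.277 (0.206 to 0.367). H3 was lower, at 119.9 CPM (77 UMIs) against 346.04 CPM (287 UMIs), a ratio of 0.346 (0.266 to 0.447). H4 had 20 against 56 UMIs, a ratio of 0.461 (0.262 to 0.780), and H2B 31 against 35 UMIs, a ratio of 1.14 (0.682 to 1.91). The cells were chosen on a share that is nearly all H2A, with limits of 1.85% (wild-type) and 2.32% (knockout). The H2A ratio among them is therefore a description of the choice. Over all kept cells the ratios were 1.28 (1.26 to 1.29) for H2A, 0.363 for H1 and 0.333 for H3. How fully each family was captured was not measured, and with 1 library a genotype these differences have no replicate check.

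Single genes of H1, H3 and H2A mostly had ratios on the same side of 1 as their family, while genes of H4 and H2B did not all do so. Among H1 genes, Hist1h1b was at 45.1 against 144.7 CPM (0.312, 0.20 to 0.471), Hist1h1e at 14.0 against 77.2 CPM (0.182, 0.0794 to 0.367) and Hist1h1a at 4.67 CPM (3 UMIs) against 48.2 CPM (0.0968, 0.0192 to 0.304). Hist1h1c, with 11 against 24 UMIs, had 0.592 (0.262 to 1.25). Of the H3 genes, Hist1h3c was at 0.262 (0.139 to 0.460), Hist1h3b at 0.263 (0.119 to 0.526), Hist1h3i at 0.283 (0.121 to 0.592) and Hist1h3a at 0.323 (0.108 to 0.810). Hist1h3d, with 15 against 35 UMIs, was at 0.553 (0.281 to 1.04), with an interval that included 1. The H2A genes Hist1h2ap, Hist1h2ad and Hist1h2ac had 1.25 (1.19 to 1.31), 1.38 (1.32 to 1.45) and 1.17 (1.06 to 1.30). In H4, Hist1h4i had 6 UMIs in each library and a ratio of 1.29 (0.345 to 4.83), and Hist1h4d had 1 against 18 UMIs, a ratio of 0.0717 (0.00172 to 0.454). In H2B, Hist1h2bc had 6 against 10 UMIs, a ratio of 0.775 (0.231 to 2.35). In the remaining cells Hist1h4i was at 1.89 (1.03 to 3.54), Hist1h4d at 0.506 (0.321 to 0.779) and Hist1h2bc at 1.85 (1.23 to 2.81).

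The split was not limited to the histone-rich cells. In the remaining cells the knockout over wild-type ratio was 1.23 (1.22 to 1.25) for H2A, 0.380 (0.338 to 0.425) for H1, 0.329 (0.291 to 0.370) for H3, 0.828 (0.665 to 1.03) for H4 and 0.965 (0.799 to 1.16) for H2B. Over the 2528 genes tested, the median knockout over wild-type ratio was 1.01, the middle 90% ran from 0.660 to 1.43, and 25 genes (0.989%) were at or below 0.5. These genes had to reach 500 UMIs in each library, which leaves out genes that are low in knockout cells, and H1 and H3 with 445 and 421 UMIs in kept knockout cells would not have reached it, so the range is no measure of how unusual their ratios are.

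**Figure D5:**
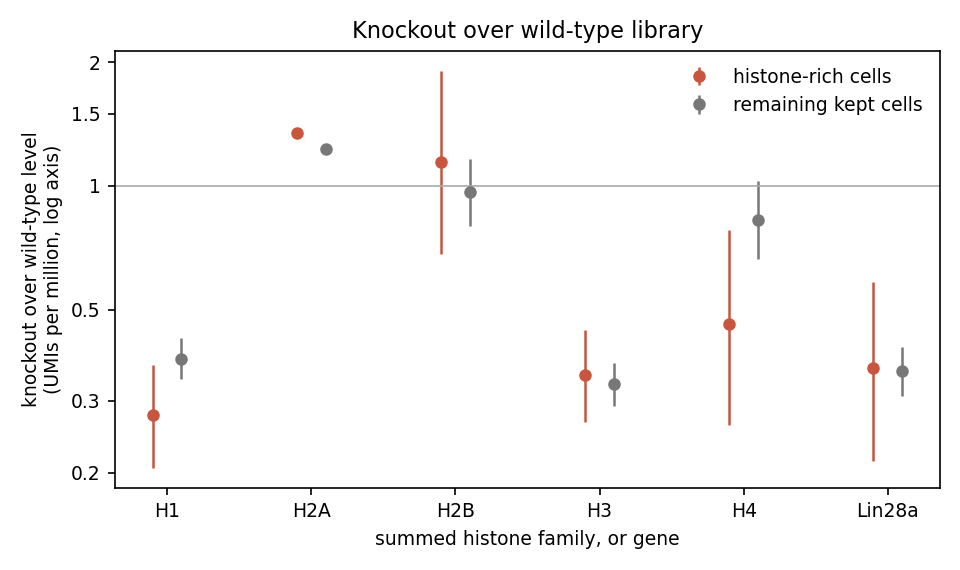
Knockout over wild-type level (log axis; grey line, 1) of the summed histone families and of Lin28a, in histone-rich cells (red) and remaining cells (grey), with exact 95% counting intervals. H1 and H3 lie between 0.277 and 0.380 and H2A above 1 in both sets of cells.

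A larger part of the cells in the knockout library reached the wild-type limit of histone share. Cells are not replicates of a genotype, so this difference between 2 libraries has no replicate check. At the wild-type limit of 1.85%, 138 of 779 knockout cells (17.7%, 15.1 to 20.6%) were at or above it, against the 137 of 1362 wild-type cells (10.1%) that the limit itself fixes. With every cell thinned to 2000 UMIs and a limit of 1.9%, the shares were 18.0% (15.3 to 20.9%) and 10.3%, the latter again set by the limit. The 75th percentile of the histone share was 1.48% among knockout and 1.26% among wild-type cells, and the 25th was 0.149% and 0.150%. In percentage points, the shares thus lay further apart at the 75th than at the 25th percentile.

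Replication and division genes within the histone-rich cells were somewhat lower in the knockout library. The replication fork list was at 0.906 (0.869 to 0.945) of its wild-type level, nucleotide supply at 0.921 (0.871 to 0.973), G2 and mitosis at 0.879 (0.838 to 0.921) and cohesin at 0.625 (0.571 to 0.683). Pcna was at 0.552 (0.472 to 0.644) and Mki67 at 0.570 (0.392 to 0.816). The remaining cells had 0.910, 0.930, 0.906 and 0.689 for the 4 lists, 0.688 for Pcna and 0.536 for Mki67. Nucleolar and ribosome assembly genes were at 0.777 (0.752 to 0.802) in histone-rich and 0.758 in remaining cells, and glycolysis genes at 1.29 (1.24 to 1.33) and 1.35.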

How the data were processed

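Single-cell RNA was captured by inDrop from 1 wild-type and 1 Lin28a knockout ES cell library, mapped from the labels. The authors deposited 1 table per library of raw, unnormalized UMI counts (genes by barcodes), with summed and ambiguous counts per gene. The submitters' processing notes name build mm10 and Seurat 2.3.4, and the study's methods follow a published inDrop pipeline. Its aligner and its rule for reads that match several genes are not given in the sources used here. Of 54146 gene ids, 54079 matched GENCODE M21 without the version suffix. Barcodes are numbered, so barcodes shared by the libraries could not be counted.

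Levels are pooled UMIs per 1000000 UMIs of a set of cells. A level has an exact Poisson interval, a share an exact binomial (Clopper-Pearson) interval and a ratio an exact conditional binomial interval, all at 95% and for counting error only; a count of 0 has a floor of 3 UMIs, a one-sided limit. Genes with at least 500 UMIs in the kept cells of each library were compared, and 1.5-fold was the call. Kept cells were 1362 of 1642 wild-type and 779 of 1110 knockout barcodes with at least 2000 UMIs. Scrublet (scanpy 1.11.5) marked doublets, which were kept in the main values. Python 3.11.15, numpy 2.4.6, pandas 2.3.3 and scipy 1.17.1 were used, and the ratio code was tested on simulated data. The members, gene lists and tests were chosen with earlier results of these data known. Named genes were the 3 markers of the label, the 15 histone genes with most UMIs, the 10 highest and 10 lowest in both libraries, of each list the 3 with most UMIs and the highest and lowest ratio, and Lin28a, Pcna and Mki67; further list members serve as examples.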

Additional observations from a re-analysis of the deposited data

How the results depend on the processing

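No paired analysis was possible because each genotype has 1 library. Every alternative listed was run, and the cause of a difference was not tested. Ratios of the G2 and mitosis list, the replication fork list, H2A and H3 ranked on the other families, and knockout over wild-type H1, H2A and H3 kept their direction in all 99 recomputed values. For knockout over wild-type H2A, the cells were chosen mostly on H2A UMIs in each setting, so its direction describes the choice. Outside the main counting interval were these. With the highest 20% chosen, G2 and mitosis was at 0.709 (wild-type). With the highest 5%, the replication fork list was at 1.11 (knockout) and knockout over wild-type H3 at 0.479. H2A in cells ranked on the other families was at 1.75 (wild-type) and 1.31 (knockout) when ranked at 2000 UMIs, 1.95 (wild-type) with at least 5000 UMIs, 1.77 and 2.05 with the highest 5%, 1.87 and 1.5 with the highest 20%, 1.69 and 1.74 under the limits of the study (at least 500 UMIs, at most 20% mitochondrial) and 1.66 (knockout) with split UMIs. Split UMIs gave 2.76 (knockout) for H3 ranked on the other families and 0.451 for knockout over wild-type H3, and scaling by the median of ratios gave 1.38 for knockout over wild-type H2A. Of 477 recomputed ratios of other lists and families, 451 kept their direction. Outside the main interval lay 61 of these values and 1 more that also changed direction although its main interval did not include 1. This 1 was the wild-type immediate early list, at 1.03 with the highest 20%.

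Counts of genes past 1.5-fold are given as wild-type, knockout and both libraries where they moved by over 1.5 times. Higher genes numbered 4, 11 and 2 when ranked at 2000 UMIs, 19, 21 and 2 with the highest 5%, 1 and 2 (each library) with the highest 20%, 30, 18 and 6 under the limits of the study, 2 (wild-type) with split UMIs, 198, 201 and 17 among genes with at least 100 UMIs, 2238, 2375 and 867 with no filter, and 1 and 1 (each library) at 2-fold. Lower genes numbered 133 (wild-type) and 50 (both) with the highest 5%, 21, 84 and 14 with the highest 20%, 226, 394 and 141 under the limits of the study, 13, 70 and 8 with split UMIs, 730, 1151 and 255 among genes with at least 100 UMIs, 2660, 3160 and 825 with no filter, and 5, 14 and 3 at 2-fold. Leaving out doublets, or ribosomal protein and mitochondrial genes from the total, moved no count by that much.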

Other observations

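Barcodes left out for collagen RNA gave a different mix of histone families. The 42 such wild-type barcodes, with at least 0.3% UMIs from the 3 collagen genes, had 0.137% histone UMIs. Of their 586 histone UMIs, 225 fell on H2A, 170 on H2B, 148 on H1, 22 on H3 and 21 on H4. Summed H2A was at 527.1 CPM there (460.5 to 600.6), against 23236.5 CPM in the histone-rich cells of the same library, while H2B was at 398.2 CPM (340.6 to 462.8) against 42.2 CPM and H1 at 346.7 against 337.6 CPM. The 13 knockout barcodes had 0.319% histone UMIs, with 268 of 330 on H2A, and H2B at 289.6 CPM (195.4 to 413.5) against 48.3 CPM in the histone-rich cells. The share of H2A in these wild-type barcodes was thus below the 93.6% of the remaining kept cells. These barcodes pool few cells, and the cells they stand for were not identified further.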
